A study of Mus musculus with 12 samples.

Results

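The cytosolic heat shock chaperones are proteins that hold, fold and refold other proteins, and Hsf1 encodes the transcription factor that switches many of their genes on during stress. The genes described are 10 named by symbol: Hsp90aa1, Hsp90ab1, Hspa8, Hspa4, Hspa4l, Hsph1, Dnajb1, Dnaja1, Hspb1 and Hsf1. All 10 were present among the 14881 genes of the count table, and none was chosen by a threshold on its values. The list was set with earlier results of these data known, however. Its counts beside the shares of all genes therefore describe the list and do not test it. RNA was sequenced from 12 aged male APPswe mice, a line that carries the Swedish mutation of the amyloid precursor protein. Every mouse was between 22 and 26 months old and received 5 µL of an adeno-associated virus of serotype AAV1, driven by the CMV promoter, into the cisterna magna. Every mouse also received weekly intraperitoneal antibody at 40 mg/kg.

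The 4 groups of 3 mice were mVEGF-C virus with mAdu (mAducanumab, an antibody against amyloid-β), mVEGF-C virus with control mIgG, eGFP control virus with mAdu, and eGFP virus with mIgG. They are written below as mVEGF-C+mAdu for mice 10, 11 and 12, mVEGF-C+mIgG for mice 7, 8 and 9, eGFP+mAdu for mice 4, 5 and 6, and eGFP+mIgG for mice 1, 2 and 3. Within a group, values follow these mouse numbers. By the labels, the viral and antibody controls shared the transgenic line, the virus serotype and the injections. No comparison here is therefore with mice labelled untreated or wild-type. CMV-driven virus is not restricted to a cell type, and the cells that took it up were not measured. VEGF-C is a growth factor of lymphatic vessels, including those of the meninges. The design therefore asks whether the virus, the antibody or both altered the tissue.

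Chaperones work in relays. J-domain proteins such as DNAJB1 and DNAJA1 bring unfolded proteins to HSP70, whose constitutive cytosolic form is HSPA8. The HSP110 proteins HSPA4, HSPA4L and HSPH1 exchange the nucleotide of HSP70 so that it lets its substrate go, and many substrates then pass on to HSP90. The small heat shock protein HSPB1 binds unfolding proteins without ATP and keeps them from aggregating. In unstressed cells HSF1 is held inactive by chaperones, and when damaged proteins draw these away it binds heat shock elements, arrays of inverted GAA units, in the promoters of chaperone genes. Neurons are known for high constitutive levels of HSPA8 and HSP90, and for a weak induction of HSP70 on heating.

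Library totals ran from 23213612 to 29295266 reads, and the common biological coefficient of variation was 5.16%. The series text gives the tissue as the hippocampus of 1 mouse per library, whereas the source label names the meninges. Levels are given as CPM, reads scaled to a common library size. Summed markers of excitatory neurons were 3085 to 3309 CPM in the 12 libraries, those of CA1 and CA3 pyramidal cells 633 to 731 CPM, and those of meningeal and perivascular fibroblasts 124 to 218 CPM. Mice 3, 6, 9 and 12 lay between the other mice of their group for 45 to 49.8% of all genes, and for 6, 5, 2 and 8 of the 10 heat shock genes, where 3 libraries that vary alike would each do so for 33.3%. Whether libraries shared material was not tested, and the SDs and p-values of 3 mice would be too small if they did. The App gene was low in mouse 5 (1342 CPM) and in mouse 6 (3716 CPM), although both are labelled APPswe, and ran from 4721 to 5507 CPM elsewhere. An unnamed gene, ENSMUSG00000045999, had 24414 to 91826 CPM in mice 1 to 3 and 108 to 1037 CPM in the other 9. Results are therefore also given without mice 3, 6, 9 and 12, without mice 5 and 6, and without that gene.

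The sequences that HSF1 is known to read are shown first, because they are what these genes are thought to have in common. RefSeq promoters (GRCm38.p6) were at hand for 6 of the 10 genes, in 10 windows covering the 250 bases before each annotated start. Each window was searched on both strands for the inverted pairs GAANNTTC and TTCNNGAA, which are palindromes. At least 1 pair occurred in 3 of the 6 genes. Windows of the same gene can overlap, and the 10 windows cover 8 separate regions, of which 3 held a pair. The share among 32851 mouse promoter windows, which were not merged, was 12.8%. Among all windows, 6.69% held GAANNTTC and 7.17% held TTCNNGAA, while the 3-unit forms, in which a further NNGAA follows GAANNTTC or a further NNTTC follows TTCNNGAA, occurred in 0.247% and 0.244%, and in 0 of the 10 windows. At shares this low 0 of 10 windows says little, and only exact units were searched. In the lines below, capitals mark the matched pair, and the sequences read 5′ to 3′ on the strand of the gene. For Dnaja1 (chr4:40722334-40722361, plus strand) and Hsph1 (chr5:149636352-149636379, minus strand) 28 bases around the match are given. For Hspb1 the last 150 bases before its start are given (chr5:135887769-135887918, plus strand), since they hold 2 pairs.
Dnaja1: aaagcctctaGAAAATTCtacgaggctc
Hsph1: ggtagaatctTTCTCGAAggctcgagaa
Hspb1: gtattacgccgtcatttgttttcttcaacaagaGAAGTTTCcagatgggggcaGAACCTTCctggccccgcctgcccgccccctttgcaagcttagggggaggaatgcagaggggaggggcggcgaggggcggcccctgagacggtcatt
The pair began 124 bases before a start of Dnaja1, 33 or 54 bases before the annotated starts of Hsph1, and 117 and 97 bases before the start of Hspb1. In GENCODE M21 the Dnaja1 and Hsph1 pairs lie inside the spans of these genes. The 150 bases before those starts overlap exons of Dnaja1 and Gm6297, and of Hsph1, whereas those before Hspb1 overlap none. The Hspa4l window and a Dnajb1 window also overlap exons of their own gene. No window of Hspa4l, Hspa4 or Dnajb1 held these letters, which says nothing of whether the factor binds there. The matches are descriptions of sequence, and binding was not measured.

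The 10 transcripts spanned a wide range of abundance. Levels between genes are given as CPM per kilobase of annotated exon (mm10, GENCODE M21), as the mean and range over the 12 mice. Hspa8 averaged 472.2 CPM per kb (434 to 500.7) and Hsp90ab1 456 CPM per kb (438.5 to 474.4). These leading genes overlapped, with Hspa8 the higher in 9 of 12 mice. Hsp90aa1 followed at 335 CPM per kb, clear of both neighbours in the order. Together Hsp90aa1, Hsp90ab1 and Hspa8 took between 0.406% and 0.501% of the reads of a library. Hspa4 averaged 61.0 CPM per kb and stood apart from its neighbours. Hsph1 averaged 29.0 CPM per kb, above Hspa4l (24.4 CPM per kb) in all 12 mice although their ranges overlapped. Dnaja1, at 23.9 CPM per kb, could not be told from Hspa4l, which was higher in 8 of 12 mice. Dnajb1 stood below these at 15.2 CPM per kb. Hsf1 (2.17 CPM per kb) and Hspb1 (1.97 CPM per kb) were the lowest, each the higher in 6 of 12 mice. These near ties depended on the length used. With the principal transcript's length in place of the exon union, Hspa8 (848 CPM per kb) stood above Hsp90ab1 (543 CPM per kb), Dnaja1 (36.7 CPM per kb) above Hspa4l (30.3 CPM per kb) and Hsf1 (7.40 CPM per kb) above Hspb1 (2.25 CPM per kb), each in all 12 mice.

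**Figure D1:**
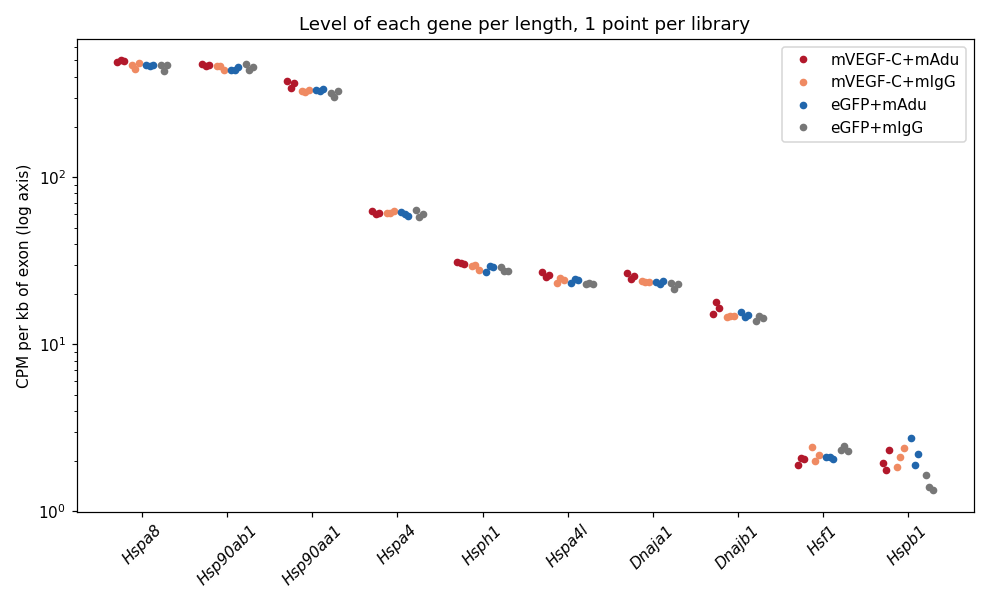
Level of each heat shock gene in CPM per kb of annotated exon on a log axis, 1 point per mouse, coloured by group. Hspa8, Hsp90ab1 and Hsp90aa1 lie at 302.5 or higher in all mice, Hspa4 to Dnajb1 between 13.9 and 63.6, and Hsf1 and Hspb1 below 2.76.

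Against eGFP+mIgG mice, mVEGF-C+mAdu mice had higher transcript levels of Hsp90aa1, the inducible cytosolic HSP90, of Hspa4l, an HSP110 protein, and of Dnaja1, a J-domain partner of HSP70. Each was 13.3 to 13.8% higher, and these 3 of the 10 genes passed edgeR's quasi-likelihood test at a Benjamini-Hochberg adjusted p under 0.05, compared with 2.18% of all genes tested (1.19% in this direction). None of the 10 fell, compared with 0.988% of all genes. Hsp90aa1 and Dnaja1 each passed in 5, and Hspa4l in 7, of 12 fits that left out 1 mouse. Some of these left out a single-treatment mouse, which is not in this comparison and acts on it mainly through the shared estimate of spread. None of the 10 passed without mice 3, 6, 9 and 12. In that last fit only 2 of all genes passed, against 324 in the main fit. The log2 fold changes of the 3 genes were then 0.18 to 0.21. With offsets for GC content and length none passed, in a fit that also called fewer of all genes. The log2 fold changes of Hspa4l and Dnaja1 were then over 1.5 times smaller. At an unadjusted p under 0.05 stood 8 of the 10, against 20.4% of all genes. The median log2 fold change of the 10 was 0.16 with 9 of 10 above 0. That of all genes was -0.0036, with 48.9% above 0. In bulk tissue, more cells of a type and more RNA per cell cannot be told apart.

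HSP90 holds client proteins such as kinases and steroid receptors near their active form. Hsp90aa1 (ENSMUSG00000021270, chr12:110690605-110702728, minus strand) had 1475, 1344 and 1434 CPM in mVEGF-C+mAdu mice, 1285, 1274 and 1309 CPM in mVEGF-C+mIgG mice, 1312, 1285 and 1330 CPM in eGFP+mAdu mice, and 1259, 1189 and 1288 CPM in eGFP+mIgG mice. Every mVEGF-C+mAdu mouse was above the other 9, while the other groups overlapped one another. Its level was 1417 ± 67.1 CPM in mVEGF-C+mAdu mice and 1245 ± 50.6 CPM in eGFP+mIgG mice (SD, n = 3 each), a log2 fold change of 0.19 (SE 0.042, edgeR adjusted p = 0.0366). Hsp90ab1 (ENSMUSG00000023944, chr17:45567775-45573271, minus strand) encodes the constitutive form. It had 1418.5, 1394 and 1402 CPM in mVEGF-C+mAdu mice, 1382, 1384 and 1321 CPM in mVEGF-C+mIgG mice, 1315, 1318 and 1371 CPM in eGFP+mAdu mice, and 1423, 1323 and 1375 CPM in eGFP+mIgG mice. The mVEGF-C+mAdu mice were above both single-treatment groups but fell within the range of the eGFP+mIgG mice. The log2 fold change over eGFP+mIgG mice was 0.03 (SE 0.038, edgeR adjusted p = 0.677). Reads of Hsp90aa1 may be split with 2 measured pseudogenes of at least 95% identity, Gm5844 and Gm12346, which summed to 5.26 CPM.

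Hspa8, the constitutive HSP70 (ENSMUSG00000015656, chr9:40800984-40810087, plus strand), was the most abundant of the 10. It had 2118, 2153 and 2125 CPM in mVEGF-C+mAdu mice, 2030.5, 1923 and 2082 CPM in mVEGF-C+mIgG mice, 2029, 1998 and 2019.6 CPM in eGFP+mAdu mice, and 2011, 1867 and 2016 CPM in eGFP+mIgG mice. The mVEGF-C+mAdu mice were again above the other 9. The difference from eGFP+mIgG mice, 0.12 on the log2 scale (SE 0.042), did not pass the edgeR test (adjusted p = 0.127). Near copies of Hspa8, mostly pseudogenes, could share its reads, and the 2 in the table (Gm8355 and Gm15459) summed to 9.05 CPM.

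The HSP110 genes encode nucleotide exchange factors of HSP70, and 1 of the 3 passed the test. Hspa4l (ENSMUSG00000025757, chr3:40744495-40796103, plus strand) had 321, 298 and 307 CPM in mVEGF-C+mAdu mice, 276, 293 and 285 CPM in mVEGF-C+mIgG mice, 275, 291 and 285 CPM in eGFP+mAdu mice, and 269.7, 276 and 270.2 CPM in eGFP+mIgG mice. The mVEGF-C+mAdu mice were above all others, and the eGFP+mIgG mice were at the bottom, overlapping eGFP+mAdu mice only slightly. It averaged 309 ± 11.7 CPM in mVEGF-C+mAdu mice and 272 ± 3.65 CPM in eGFP+mIgG mice (SD, n = 3 each), with a log2 fold change of 0.18 (SE 0.038, edgeR adjusted p = 0.0293). Hsph1 (ENSMUSG00000029657, chr5:149614287-149636376, minus strand), the heat-inducible HSP110, had 224.5, 222 and 220.5 CPM in mVEGF-C+mAdu mice, 213, 218 and 202 CPM in mVEGF-C+mIgG mice, 196, 214 and 212 CPM in eGFP+mAdu mice, and 209.8, 199 and 200.02 CPM in eGFP+mIgG mice. Its mVEGF-C+mAdu mice were above the other 9 by a small margin, and the log2 fold change over eGFP+mIgG mice of 0.13 (SE 0.042) did not pass (edgeR adjusted p = 0.102). Hspa4 (ENSMUSG00000020361, chr11:53259814-53300457, minus strand), the ubiquitous HSP110, had 345, 335 and 337 CPM in mVEGF-C+mAdu mice, 336, 337 and 348 CPM in mVEGF-C+mIgG mice, 345, 334 and 325 CPM in eGFP+mAdu mice, and 351, 319 and 334 CPM in eGFP+mIgG mice. All 4 groups overlapped. Its log2 fold change between mVEGF-C+mAdu and eGFP+mIgG mice was 0.02 (SE 0.039, edgeR adjusted p = 0.823).

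The J-domain genes encode the proteins that start the ATP cycle of HSP70, and 1 of the pair passed. Dnaja1 (ENSMUSG00000028410, chr4:40722150-40737149, plus strand) had 229.7, 213 and 222 CPM in mVEGF-C+mAdu mice, 207, 203 and 202.5 CPM in mVEGF-C+mIgG mice, 205, 199 and 207 CPM in eGFP+mAdu mice, and 201, 186 and 198 CPM in eGFP+mIgG mice. All mVEGF-C+mAdu mice were above the other 9, and mVEGF-C+mIgG mice were also above eGFP+mIgG mice without overlap, as they were for 6.38% of all genes. The levels of 221 ± 8.37 CPM in mVEGF-C+mAdu mice and 195 ± 7.98 CPM in eGFP+mIgG mice (SD, n = 3 each) gave a log2 fold change of 0.18 (SE 0.039, edgeR adjusted p = 0.032). Because strand use in counting is not given in the sources used here, the 608 bases (7.05% of its exon length) that Dnaja1 shares with the antisense gene Smu1 leave part of its count uncertain. Smu1, which matches Dnaja1 through that overlap, and the pseudogene Gm15542 summed to 96.5 CPM, against a mean of 206 CPM for Dnaja1. Dnajb1 (ENSMUSG00000005483, chr8:83608193-83612653, plus strand), the heat-inducible J-domain protein of HSP70, had 48.8, 57.4 and 52.8 CPM in mVEGF-C+mAdu mice, 46.5, 47.1 and 47.1 CPM in mVEGF-C+mIgG mice, 49.7, 46.8 and 48.2 CPM in eGFP+mAdu mice, and 44.4, 47.7 and 46.3 CPM in eGFP+mIgG mice. Mouse 10 lay below eGFP+mAdu mouse 4, whereas mouse 11 was the highest of all 12. The log2 fold change over eGFP+mIgG mice was 0.20 (SE 0.054), which missed the threshold (edgeR adjusted p = 0.0596).

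Hspb1 (ENSMUSG00000004951, chr5:135887919-135889563, plus strand), the small heat shock protein, had only 31 to 82 reads per library. It had 2.00, 1.82 and 2.42 CPM in mVEGF-C+mAdu mice, 1.91, 2.19 and 2.48 CPM in mVEGF-C+mIgG mice, 2.84, 1.95 and 2.27 CPM in eGFP+mAdu mice, and 1.71, 1.44 and 1.38 CPM in eGFP+mIgG mice. The eGFP+mIgG mice were below all other 9, a pattern shown by 1.27% of all genes, while the 3 treated groups overlapped. The gap rests on few reads, as mouse 1 had 47 reads, mouse 7 had 47 and mouse 11 had 45. Hspb1 also had 2 near copies of at least 95% identity, 1 of them a pseudogene, with 0 among the genes counted. The log2 fold change over eGFP+mIgG mice was 0.64 in eGFP+mAdu mice (SE 0.188, edgeR adjusted p = 0.298), 0.54 in mVEGF-C+mIgG mice (SE 0.191, adjusted p = 0.555) and 0.46 in mVEGF-C+mAdu mice (SE 0.193, adjusted p = 0.198). These 3 comparisons share their control mice, and none passed. The erythrocyte globin Hbb-bs was found at 0.960 to 1.45 CPM with both treatments, at 0.896 to 1.83 CPM with mVEGF-C alone, at 0.884 to 1.94 CPM with mAdu alone, and at 0.581 to 0.883 CPM in eGFP+mIgG mice. Its part in the Hspb1 values was not tested, and the other 4 listed erythrocyte genes were not among the genes counted.

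Hsf1 (ENSMUSG00000022556, chr15:76477422-76501913, plus strand) was the 1 gene of the 10 with a lower mean in mVEGF-C+mAdu mice. It had 13.5, 14.8 and 14.7 CPM in mVEGF-C+mAdu mice, 17.4, 14.3 and 15.4 CPM in mVEGF-C+mIgG mice, 15.1, 15.1 and 14.6 CPM in eGFP+mAdu mice, and 16.5, 17.4 and 16.3 CPM in eGFP+mIgG mice. Both groups given mAdu lay below eGFP+mIgG mice without overlap, as did 13.4% of all genes in mVEGF-C+mAdu mice and 7.78% in eGFP+mAdu mice. With 351 to 473 reads per library, the log2 fold change of mVEGF-C+mAdu over eGFP+mIgG mice was -0.22 (SE 0.074) and did not pass (edgeR adjusted p = 0.111). HSF1 is known to be regulated mainly as a protein, and its transcript level does not measure its activity.

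Counted over libraries, 5 of the 10 genes (Hsp90aa1, Hspa8, Hspa4l, Hsph1 and Dnaja1) had all 3 mVEGF-C+mAdu mice above the other 9, compared with 3.15% of all genes. Set against eGFP+mIgG mice alone, all 3 mVEGF-C+mAdu mice were higher for 7 of the 10, compared with 13.9% of all genes. The mVEGF-C+mAdu mice were all above the mVEGF-C+mIgG mice for 7 of the 10 (8.37% of all genes) and all above the eGFP+mAdu mice for 6 of the 10 (11.5%). With 1 treatment alone, all mVEGF-C+mIgG mice were above the eGFP+mIgG mice for 3 of the 10 (Hspa4l, Dnaja1 and Hspb1), and all eGFP+mAdu mice for 1 (Hspb1), compared with 6.38% and 7.63% of all genes. These genes come from the same libraries and are not independent replicates, and their list was set with earlier results of these data known.

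**Figure D2:**
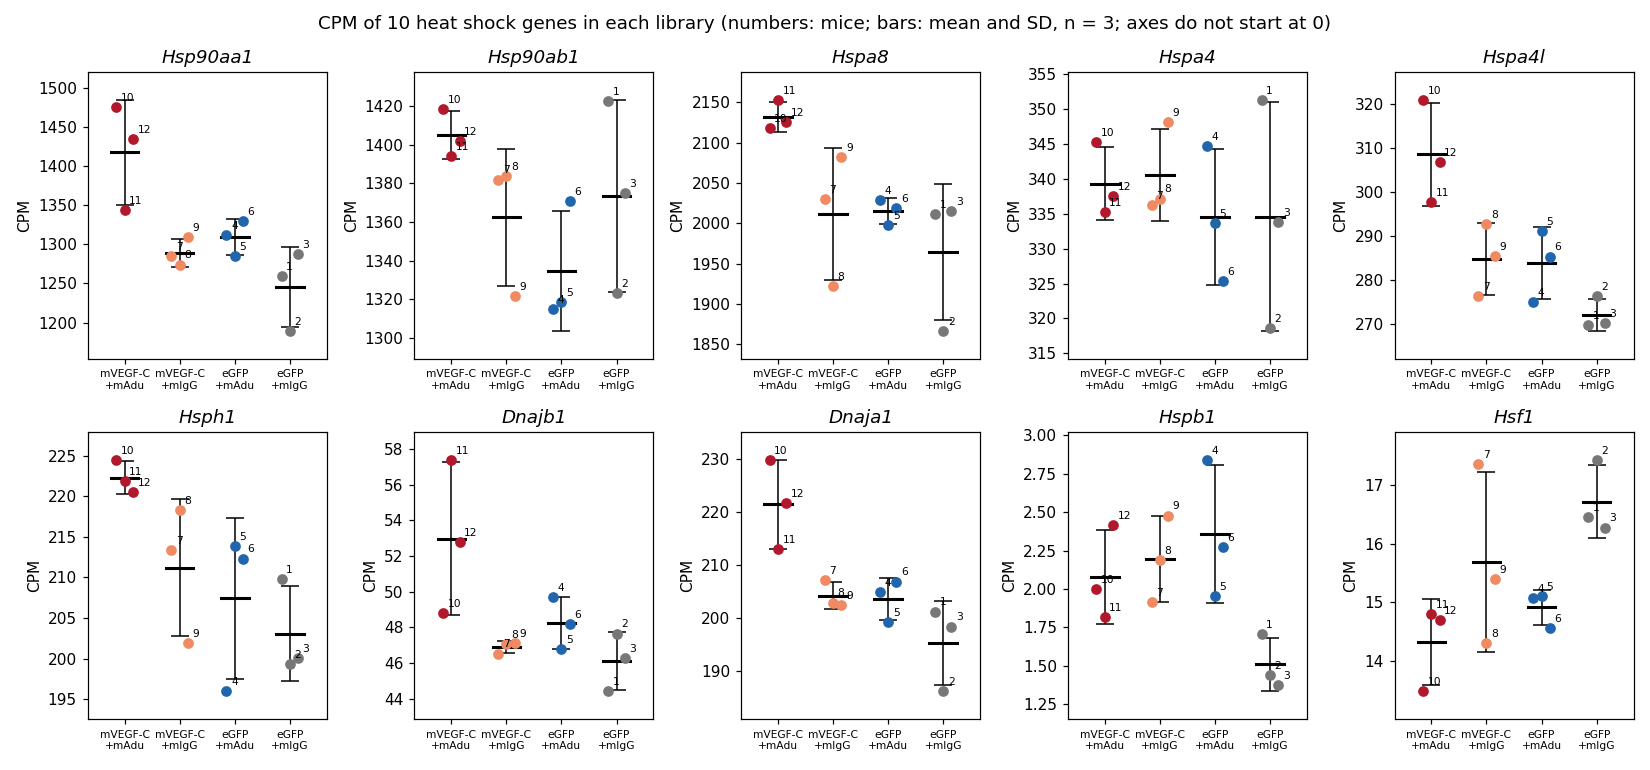
CPM of the 10 heat shock genes in each mouse, by group, with the mean as a thick bar and the SD as a thin bar (n = 3); the axes do not start at 0. The mVEGF-C+mAdu mice (left) lie above the other 9 for Hsp90aa1, Hspa8, Hspa4l, Hsph1 and Dnaja1, and the eGFP+mIgG mice (right) lie lowest for Hspb1.

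When 1 treatment was changed at a time, none of the 10 genes passed. For mAdu over mIgG within mVEGF-C mice the log2 fold change was 0.14 for Hsp90aa1, 0.18 for Dnajb1, 0.12 for Hspa4l and 0.12 for Dnaja1, with edgeR adjusted p between 0.187 and 0.22. For mVEGF-C over eGFP within mAdu mice it was 0.12 for Hsp90aa1, 0.12 for Hspa4l, 0.12 for Dnaja1, 0.14 for Dnajb1 and 0.10 for Hsph1, with edgeR adjusted p between 0.174 and 0.29. Both comparisons share the mVEGF-C+mAdu mice. Of all genes, 0.208% passed for the antibody within mVEGF-C mice and 0.0470% for the virus within mAdu mice. At an unadjusted p under 0.05 stood 4 and 5 of the 10 genes, against 12.7% and 14.3% of all genes, and DESeq2 also called 0 in each.

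Each treatment was also given alone and set against eGFP+mIgG mice. For mAdu within eGFP mice the log2 fold change was 0.07 for Hsp90aa1, 0.06 for Hspa4l, 0.06 for Dnaja1 and 0.07 for Dnajb1. For mVEGF-C within mIgG mice it was 0.05 for Hsp90aa1, 0.07 for Hspa4l, 0.06 for Dnaja1 and 0.03 for Dnajb1. For Hspb1 and Hsf1 the estimates alone were larger in size than those on top of the other treatment. Hspb1 stood at 0.64 for mAdu alone and at -0.08 for mAdu within mVEGF-C mice, and at 0.54 for mVEGF-C alone and at -0.19 for mVEGF-C within mAdu mice. Hsf1 stood at -0.16 for mAdu alone and at -0.13 for mAdu within mVEGF-C mice, and at -0.09 for mVEGF-C alone and at -0.06 for mVEGF-C within mAdu mice. Neither edgeR nor DESeq2 called any of the 10 in either comparison, in which 0.0336% and 0.0403% of all genes passed with edgeR. At an unadjusted p under 0.05 stood 2 of the 10 (Hspb1 and Hsf1) for mAdu and 1 (Hspb1) for mVEGF-C, against 9.21% and 7.91% of all genes.

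The interaction asks whether the change with mAdu differed between mVEGF-C and eGFP mice. For Hsp90aa1 this difference was 0.07 (SE 0.060), for Hspa4l 0.05 (SE 0.054), for Dnaja1 0.06 (SE 0.056) and for Dnajb1 0.11 (SE 0.077), with edgeR adjusted p from 0.853 to 0.928. A departure from additive effects was thus not detectable for these genes, and these errors leave room for one as large as each treatment's own estimate. Hspb1 had a difference of -0.73 (SE 0.262, unadjusted p = 0.014, edgeR adjusted p = 0.673). It was the 1 gene of the 10 at an unadjusted p under 0.05, against 6.82% of all genes, and neither edgeR nor DESeq2 called any of the 10 for the interaction, in which 0.0134% of all genes passed with edgeR.

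Averaged over both viruses, mAdu gave a log2 fold change of 0.10 for Hsp90aa1 (SE 0.030, edgeR adjusted p = 0.118), 0.12 for Dnajb1, 0.09 for Hspa4l and 0.09 for Dnaja1. Averaged over both antibodies, mVEGF-C gave 0.09 for Hspa4l (SE 0.027, edgeR adjusted p = 0.127), 0.09 for Dnaja1, 0.08 for Hsp90aa1 and 0.08 for Hsph1. None of the 10 passed with edgeR in either average or in the test of any difference among the 4 groups, in which 0.571%, 0.390% and 0.618% of all genes passed. At an unadjusted p under 0.05 stood 6, 4 and 7 of the 10, against 15.5%, 16% and 17.6% of all genes. DESeq2 called Hsp90aa1 for the averaged antibody change (adjusted p = 0.0323), and Hsp90aa1, Hspa4l and Dnaja1 for any difference among groups.

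**Figure D3:**
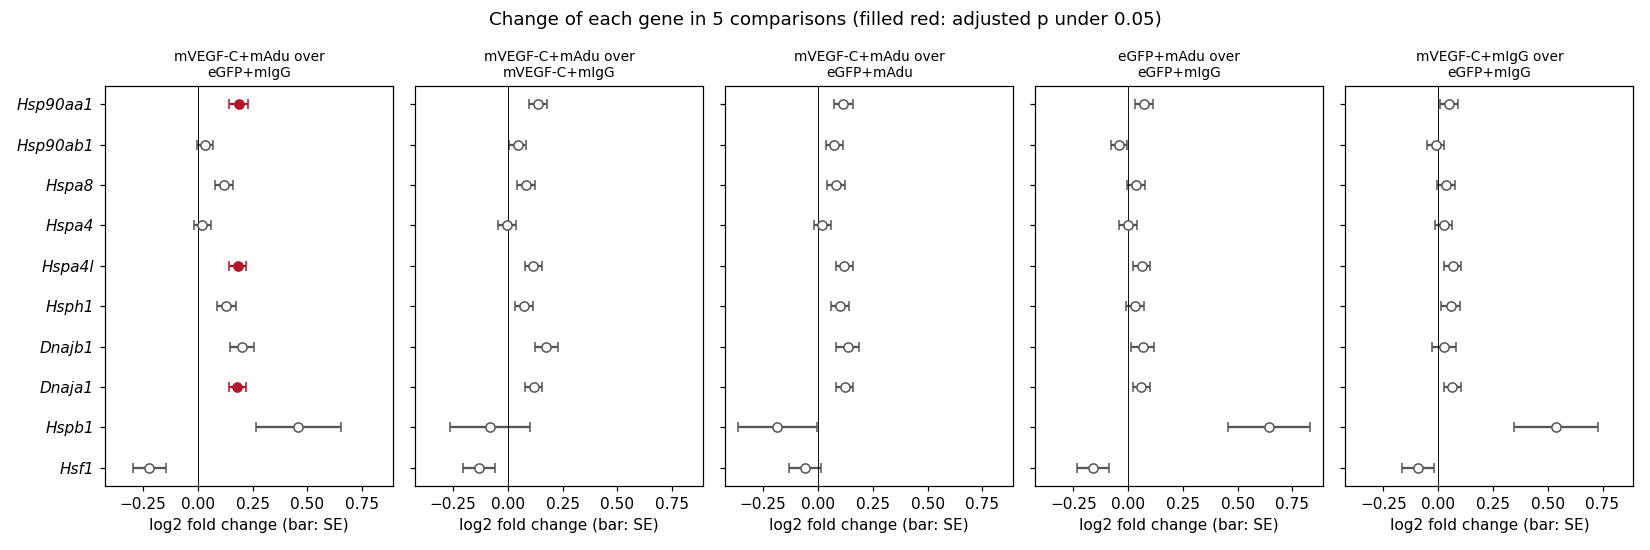
Log2 fold change of each heat shock gene (point, with SE as the bar) in 5 comparisons, with filled points where the edgeR adjusted p was under 0.05. Filled points occur only for Hsp90aa1, Hspa4l and Dnaja1 in mVEGF-C+mAdu over eGFP+mIgG mice, and the wide bars of Hspb1 (SE 0.179 to 0.193) go with its low counts.

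The other genes of the heat shock network were taken as lists chosen by role, and their counts stand beside 1.19% of all genes that rose and 0.988% that fell. Among 12 measured other inducible heat shock genes, 2 rose and 0 fell in mVEGF-C+mAdu over eGFP+mIgG mice, with a median log2 fold change of 0.13. Chordc1, an HSP90-binding protein with a zinc-binding domain, averaged 75.4 ± 1.25 CPM in mVEGF-C+mAdu mice and 63.9 ± 4.77 CPM in eGFP+mIgG mice (SD, n = 3 each), a log2 fold change of 0.24 (SE 0.048, edgeR adjusted p = 0.0248). Cacybp, which binds calcyclin and the ubiquitin ligase SIAH1, averaged 102.8 ± 1.01 CPM in mVEGF-C+mAdu mice and 88.6 ± 2.10 CPM in eGFP+mIgG mice (SD, n = 3 each), a log2 fold change of 0.21 (SE 0.035, edgeR adjusted p = 0.0101). The classical stress-induced HSP70 genes did not pass, with 0.09 for Hspa1a (edgeR adjusted p = 0.694) and 0.23 for Hspa1b (adjusted p = 0.296), and since these genes are nearly identical their separate counts are uncertain. The small heat shock gene Cryab stood at 0.16 (edgeR adjusted p = 0.102), and Bag3 and Hspb8, partners in chaperone-assisted autophagy, at -0.12 and -0.18. Cacybp was also higher in mAdu mice averaged over both viruses (log2 fold change 0.13, SE 0.025, edgeR adjusted p = 0.0383).

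Of 15 HSP90 co-chaperones, 1 rose and 0 fell, and their median log2 fold change was 0.02. The gene that rose was Ptges3, which encodes the p23 co-chaperone of HSP90, at 161 ± 1.82 CPM in mVEGF-C+mAdu mice and 146 ± 1.91 CPM in eGFP+mIgG mice (SD, n = 3 each; log2 fold change 0.15, SE 0.033, edgeR adjusted p = 0.035). Fkbp4 (0.14, edgeR adjusted p = 0.0873) and Sugt1 (0.13, adjusted p = 0.0562) did not pass. Of 17 other HSP70 family members and co-chaperones, 1 rose and 0 fell, with a median of 0.03. That gene was Hspa13, an HSP70 of the microsomal fraction and so not a cytosolic chaperone, at 87.0 ± 3.32 CPM in mVEGF-C+mAdu mice and 74.5 ± 1.75 CPM in eGFP+mIgG mice (SD, n = 3 each; log2 fold change 0.22, SE 0.046, edgeR adjusted p = 0.0262). None of 14 genes of the TRiC chaperonin and prefoldin passed (median 0.04, 13 of 14 above 0 against 48.9% of all genes, 1 at an unadjusted p under 0.05). None of 8 mitochondrial chaperones passed either (median 0.06, 0 at an unadjusted p under 0.05), nor did any of 4 other heat shock factors and regulators (1 at an unadjusted p under 0.05), where Hsf2 stood at 0.15 (edgeR adjusted p = 0.22). The 4 called genes of these lists had a GC content of 38.4% for Chordc1, 42.1% for Cacybp, 42.8% for Ptges3 and 42.6% for Hspa13. The genes that did not pass ran from 37.9% for Vbp1 to 61.2% for Hsf4, with Hsf2 at 38.7% and Sugt1 at 41.8%. With GC and length offsets none of the 4 called genes passed. Their log2 fold changes were then 0.13, 0.14, 0.08 and 0.15, with edgeR adjusted p from 0.0565 to 0.258. Without mice 3, 6, 9 and 12 none passed either (0.30, 0.23, 0.15 and 0.24, each with an edgeR adjusted p of 0.56), and they passed in 8, 10, 4 and 8 of the 12 fits that left out 1 mouse. DESeq2 called the same genes of each list in this comparison, and 0 where edgeR called 0. In the comparisons of 1 treatment at a time and in the interaction no gene of these lists passed the edgeR test, while DESeq2 called Fkbp5 for mAdu within eGFP mice and Chordc1, Ptges3 and Hspa13 for mVEGF-C within mAdu mice. For mVEGF-C averaged over both antibodies no gene of these lists passed the edgeR test, while DESeq2 called Chordc1, Ptges3, Cdc37l1 and Hspa13.

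Several cell type marker lists differed between the same mice, and their part in the heat shock results was not tested. Of all genes, 48.9% stood above 0 in this comparison, 1.19% rose and 0.988% fell. Markers of microglia summed to 447 to 452 CPM in mVEGF-C+mAdu mice and 476 to 525 CPM in eGFP+mIgG mice, with 7 of 8 genes below 0 and C1qa and C1qb passing. Markers of the choroid plexus summed to 45.9 to 47.7 CPM in mVEGF-C+mAdu mice and 62.9 to 107 CPM in eGFP+mIgG mice, with 6 of 7 below 0 and Ttr passing. Ependymal markers summed to 21.01 to 34.4 CPM in mVEGF-C+mAdu mice and 34.8 to 44.8 CPM in eGFP+mIgG mice, all 6 below 0, with Foxj1 passing. These cell types border the ventricles or survey the tissue, and their summed markers did not overlap between mVEGF-C+mAdu and eGFP+mIgG mice. Dentate granule cell markers summed to 340 to 351 CPM in mVEGF-C+mAdu mice and 377 to 379 CPM in eGFP+mIgG mice, 5 of 6 below 0, none passing. Fibroblast markers summed to 148 to 167 CPM in mVEGF-C+mAdu mice and 164 to 199 CPM in eGFP+mIgG mice, all 8 below 0, none passing. Immediate early genes, which neurons switch on within minutes of activity, summed to 375 to 521 CPM in mVEGF-C+mAdu mice and 265 to 387 CPM in eGFP+mIgG mice, with 11 of 12 above 0, and 5 rose (Fos, Fosb, Egr2, Arc and Nr4a1). Sums of excitatory neuron markers were 3124 to 3213 CPM in mVEGF-C+mAdu mice and 3180 to 3309 CPM in eGFP+mIgG mice, and those of astrocytes 4072 to 4315 CPM in mVEGF-C+mAdu mice and 3904 to 4403 CPM in eGFP+mIgG mice. The groups overlapped in both, as they did for oligodendrocyte and endothelial sums. Yet 1 of the 8 astrocyte genes and 1 of the 8 endothelial genes passed, both lower. DESeq2 likewise called 1 gene in each of these lists. They were Aldh1l1 (mean 50.6 CPM in mVEGF-C+mAdu and 58.4 CPM in eGFP+mIgG mice) and Vwf (9.86 and 16.1 CPM). DESeq2 also called Col1a2 of the fibroblast list, Dsp of the granule cell list and Ccdc153 of the ependymal list, all lower, and Gad1 of the inhibitory neuron list, higher, and among the immediate early genes it called Dusp1 in place of Arc.

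**Figure D4:**
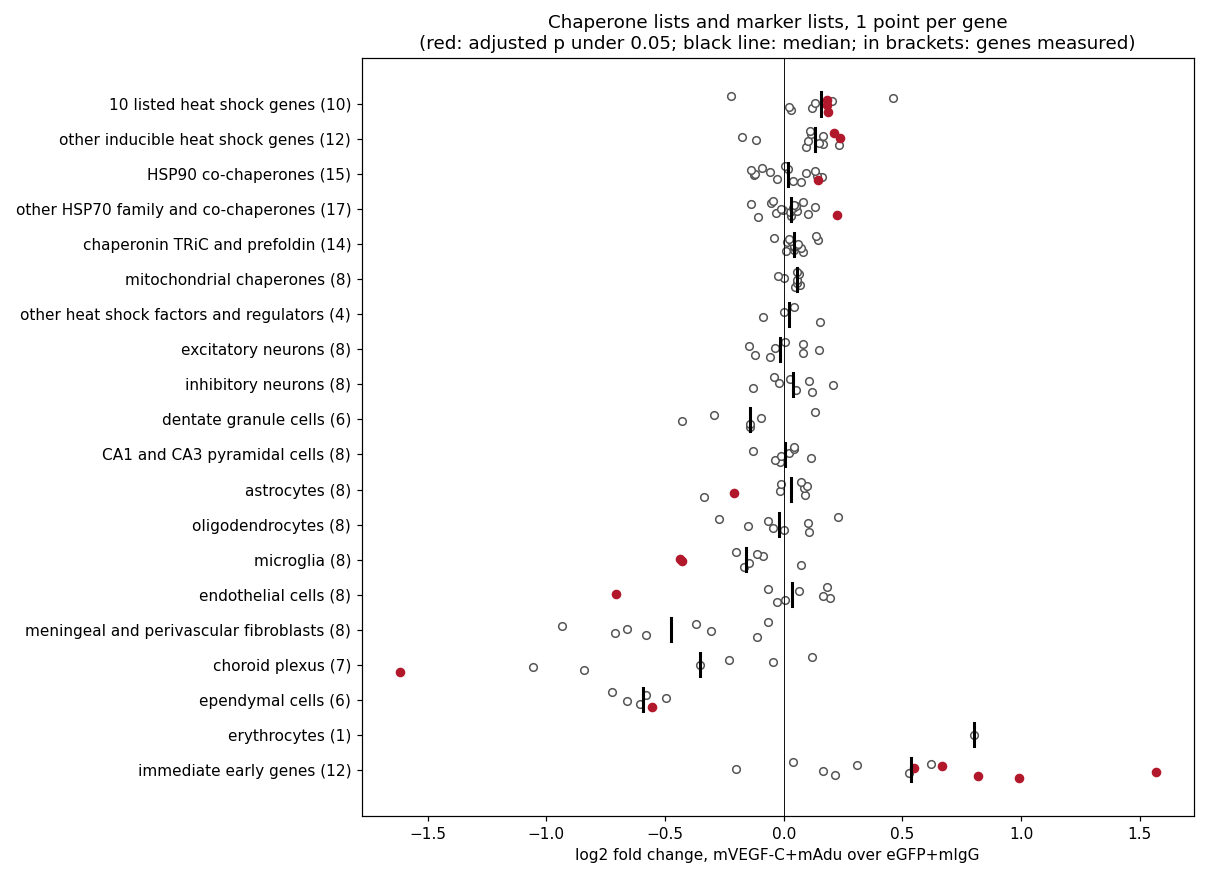
Log2 fold change of mVEGF-C+mAdu over eGFP+mIgG mice, 1 point per gene, for the 10 heat shock genes, other chaperone lists and cell type marker lists; filled points had an edgeR adjusted p under 0.05, black lines are medians and brackets give the genes measured. The chaperone lists lie within -0.22 and 0.46, while the marker lists reach from -1.62 to 1.57.

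The calls for Hsp90aa1, Hspa4l and Dnaja1 lay near the threshold. Over 20 other settings their log2 fold changes stayed above 0, and they passed in 10, 13 and 10 of them. Without mouse 1, 3, 6, 10 or 12 none of the 10 genes passed, and without mouse 2 or 9 only Hspa4l did. Without mouse 7 or 8 Dnajb1 joined the 3, making 4. Mice of the single-treatment groups are not in this comparison, and leaving them out acts on it mainly through the shared estimate of spread. Without mice 3, 6, 9 and 12 together none passed, at log2 fold changes of 0.21 for Hsp90aa1 (SE 0.068), 0.18 for Hspa4l (SE 0.064) and 0.19 for Dnaja1 (SE 0.064), each with an edgeR adjusted p of 0.56. Leaving out mice 5 and 6 left only mouse 4 in the eGFP+mAdu group. The log2 fold changes were then 0.187 for Hsp90aa1, 0.182 for Hspa4l and 0.181 for Dnaja1, the same to these digits as in the main fit. Without the unnamed gene the same 3 passed.

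Base composition and exon length were set beside the calls of the 10 genes after these were known. The genes that passed had the lowest GC content of the 10, at 42.3% for Dnaja1, 42.4% for Hspa4l and 44.9% for Hsp90aa1, whereas the others ran from 46.3% for Hspa4 to 61.2% for Hspb1. Hspa4l (11792 bases) and Dnaja1 (8629 bases) also had the greatest exon length of the 10. Each library's trend of log2 CPM over GC content and length gave Dnaja1 values of 0.08, 0.02 and 0.04 in mVEGF-C+mAdu mice and -0.05, -0.02 and -0.02 in eGFP+mIgG mice. In the same order Hsp90aa1 had 0.06, 0.004 and 0.03 against -0.02, -0.03 and -0.009, and Hspa4l 0.07, 0.02 and 0.03 against -0.05, -0.007 and -0.02. GC content and length were fitted together in those trends and cannot be told apart. With those trends as offsets, an alternative added after the data were seen, none of the 10 passed. Hsp90aa1 then stood at 0.13 (SE 0.032, edgeR adjusted p = 0.0758), Hspa4l at 0.11 (SE 0.028, adjusted p = 0.077) and Dnaja1 at 0.10 (SE 0.039, adjusted p = 0.23). Dnajb1, with a GC content of 52.4%, was at 0.22 (edgeR adjusted p = 0.0755).

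**Figure D5:**
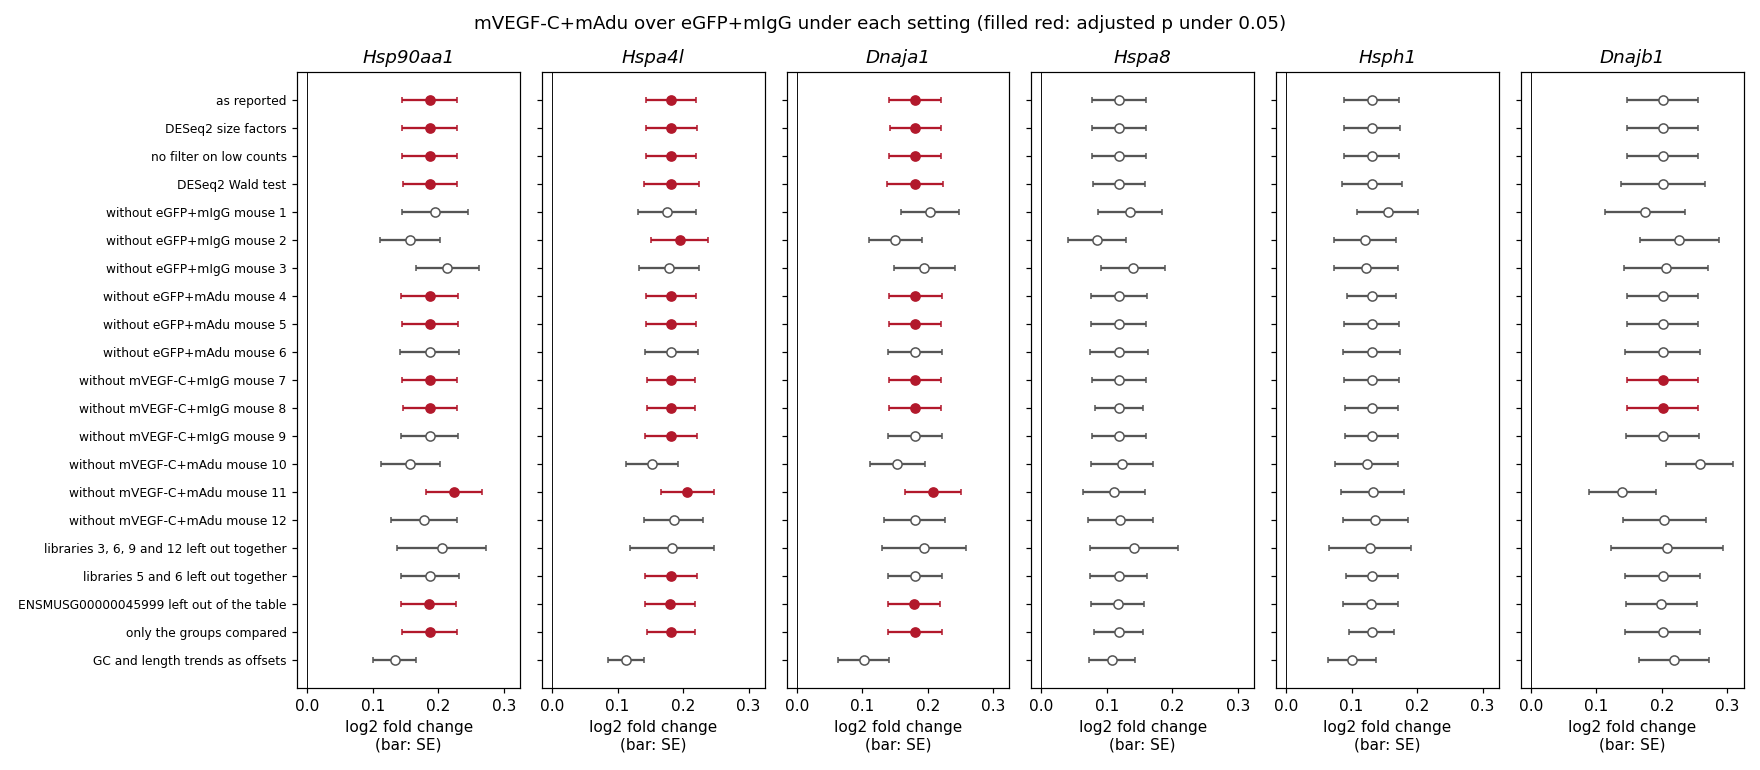
Log2 fold change of mVEGF-C+mAdu over eGFP+mIgG mice (point, with SE as the bar) for 6 of the genes under each setting, filled where the adjusted p was under 0.05. All points are above 0, from 0.09 for Hspa8 without mouse 2 to 0.26 for Dnajb1 without mouse 10, and the GC and length offsets give the lowest values of Hsp90aa1, Hspa4l, Dnaja1 and Hsph1.

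The mean centred log2 CPM of the chaperone genes other than Hsf1 and the low-count Hspb1 was 0.09, 0.07 and 0.08 in mVEGF-C+mAdu mice, -0.01, -0.01 and -0.01 in mVEGF-C+mIgG mice, -0.02, -0.02 and -0.005 in eGFP+mAdu mice, and -0.03, -0.09 and -0.04 in eGFP+mIgG mice. The mice given both treatments stood above all others, and the single-treatment mice lay between them and the eGFP+mIgG mice. Genes most like the mean of all 9 chaperones, Hspb1 included, were sought by Pearson correlation over the 12 mice among 9775 genes with a mean of at least 10 CPM. They were Cept1 (r = 0.948), Tra2a (0.935), Nap1l2 (0.923), Metap1 (0.920) and Slco1c1 (0.918). Without mice 3, 6, 9 and 12 their r over 8 mice was 0.922, 0.936, 0.957, 0.953 and 0.943. These values describe genes picked for their likeness in libraries that fall into groups, so they carry no test.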

How the data were processed

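The authors deposited raw read counts per gene for 12 libraries, with no normalization. Per the labels' protocols, RNA was extracted with the PicoPure kit and amplified linearly. Per the submitters' processing notes, the tools were STAR, Subread and featureCounts, with FastQC, Trim Galore and edgeR, on mouse build mm10. Versions, annotation, strand use and the handling of reads with several matches: not given in the sources used here. GENCODE M21 named 14797 of the 14881 identifiers. The lowest gene total was 147 reads, and the filterByExpr function removed 0 genes. The quasi-likelihood model of edgeR 4.0.16 (R 4.3.3; TMM scaling, 1 mean per group) took in all 12 libraries, and p-values were adjusted by Benjamini-Hochberg across every gene, with a threshold of 0.05. CPM use TMM library sizes, and changes are log2 fold changes. Each library is 1 mouse per the series text. The alternatives were DESeq2 1.42.0 (Wald test and size factors), no filter, leaving out libraries or a gene, only the compared groups, and GC and length offsets. For any difference among the groups, DESeq2 used its likelihood ratio test in place of the Wald test. The heat shock genes and all lists were chosen with earlier results of these data known. Among genes outside the lists, the 5 most like the family mean over 12 and over 8 libraries were named by rule. Near copies were sought by aligning transcripts (at least 95% identity over 300.0 bases). Molecular identifiers are not given, so reads copied from 1 molecule cannot be told apart at this depth. The SEs and SDs include the spread between mice.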

Additional observations from a re-analysis of the deposited data

How the results depend on the processing

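For the 3 called genes, the fits that left out 1 library lost 19 of 36 calls, and the other settings lost 8 of 24. Some of these fits left out mice of neither compared group, which act on the comparison mainly through the shared estimate of spread. Among all changes of the 10 genes, 2 calls were gained by leaving out a library and 1 under the other settings, where 13 of 610 values, all uncalled, moved by more than the spread between replicates. The number of the 10 genes passing in mVEGF-C+mAdu over eGFP+mIgG mice (3) ran from 0 to 4 when 1 library was left out, and was 0 without mice 3, 6, 9 and 12, 1 without mice 5 and 6, and 0 with GC and length offsets, where the cause was not tested. DESeq2 called 1 of the 10 for the averaged antibody change and 3 for any difference among the 4 groups, against 0 with edgeR in each. For the 4 comparisons of 1 treatment at a time and the interaction the count stayed at 0 in every setting run. Over all genes, the 324 calls in mVEGF-C+mAdu over eGFP+mIgG mice became 2 without mice 3, 6, 9 and 12, 192 without mice 5 and 6, 64 with the offsets and 610 with only the compared groups, and 12 to 594 without 1 library. The other counts over all genes ran over all settings from 2 to 49 (main 5) for mAdu in eGFP mice, 0 to 138 (31) for mAdu in mVEGF-C mice, 1 to 52 (6) for mVEGF-C in mIgG mice, 0 to 110 (7) for mVEGF-C in mAdu mice, 0 to 36 (2) for the interaction, 1 to 220 (85) for mAdu averaged, 0 to 253 (58) for mVEGF-C averaged and 2 to 423 (92) for any difference. No paired analysis was possible because the mouse numbers run from 1 to 12 and no number is shared between groups. Depth limits Hspb1 most, at 31 to 82 reads per library.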
